A study of Mus musculus with 3 samples.

Results

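The complement genes described here are 9 of the 30406 genes that all 3 deposited gene lists share: C1qa, C1qb and C1qc, C1ra, C1s1, C4b, C2, C3 and Cfb. They were chosen by symbol and matched by Ensembl ID, and all 9 were measured in each library. Complement is a cascade of secreted proteins that marks antibody-coated or foreign surfaces for removal. In its classical pathway, C1q binds bound antibody and carries the proteases C1r and C1s. C1s cuts C4 and C2, and fragments of these form an enzyme that cuts C3. In the alternative pathway, factor B supplies the cutting part of a second C3-cleaving enzyme. Macrophages are a well-known source of C1q, while fibroblasts, the family to which the keratocytes of the corneal stroma belong, are known to make C1r and C1s.

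RNA of single nuclei was counted from whole mouse corneas in 3 droplet libraries, 1 per group. WT came from untreated wild-type mice, KO from untreated Aire knockout mice, and KO_PBS from Aire knockout mice given phosphate-buffered saline for 14 days. Each library pooled corneas of 5 mice at 7 weeks of age, per the labels, while the series text gives a younger age and an earlier day of treatment. Aire controls the display of self-antigens in the thymus, the knockout is used as a model of autoimmune dry eye, and the labels name no further allele. Since mice were pooled and each group is 1 library, differences cannot be set against a spread between replicates, and no test was run. Every interval is a 95% interval for counting error only.

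The WT library held 256852883 UMIs (counted RNA molecules) on 96587 barcodes, the KO library 352627863 on 107031, and the KO_PBS library 178988562 on 114357. Levels are given as CPM, the UMIs of a gene scaled to a library or class total of 1000000. Between 2833 and 3379 barcode sequences were shared by any pair of libraries. Aire itself stood at 0.059 CPM in WT, 0.077 in KO and 0.382 in KO_PBS. It was near the floor throughout and highest in a knockout library, so it does not check the labels, and all directions given are those of the libraries by label. The macrophage marker list (13 genes) summed to 118.8 CPM in WT, 847.7 in KO and 859.8 in KO_PBS, and the keratocyte list (13 genes) to 1505, 4764 and 2915. The KO_PBS library also held more RNA of other eye tissues: melanocyte markers summed to 4216 CPM (WT 492.8, KO 142.9), and lens markers to 9682 (WT 625, KO 247.4). In these sums over whole corneas, a change in the number of cells of a type and a change in RNA per cell cannot be told apart.

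Several of the genes are neighbours in the genome. On mouse build GRCm38, C1qa (ENSMUSG00000036887, chr4:136895917-136898803), C1qc (ENSMUSG00000036896, chr4:136889804-136893065) and C1qb (ENSMUSG00000036905, chr4:136880129-136886187) follow each other on the minus strand with 0 protein-coding genes between them. C1ra (ENSMUSG00000055172, chr6:124512405-124523443) and C1s1 (ENSMUSG00000038521, chr6:124530345-124542359) lie 6901 bases apart on opposite strands. C2 (ENSMUSG00000024371, chr17:34862604-34898265) ends 85 bases from Cfb (ENSMUSG00000090231, chr17:34856374-34862518), and C4b (ENSMUSG00000073418, chr17:34728380-34743882) lies 112491 bases beyond Cfb. C3 (ENSMUSG00000024164, chr17:57203970-57228136) lies on the same chromosome, apart from them. All are protein-coding.

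Promoters of 5 of the 9 genes were searched, and the 3 with a motif match are shown, C3, C1qc and C1s1. The windows of C1qb and C1ra had no match. They are from RefSeq (GRCm38.p6), minus strand, 5′ to 3′. Capitals mark matches to any of 3 motifs searched on both strands: TTGCNNAA (C/EBP), GAGGAAGT (PU.1) and TTCNNNGAA (interferon-gamma activated site). No matches overlapped. The C1qc stretch is the part of its 250-base window that lies before every annotated exon of the gene.
C3, chr17:57228137-57228386: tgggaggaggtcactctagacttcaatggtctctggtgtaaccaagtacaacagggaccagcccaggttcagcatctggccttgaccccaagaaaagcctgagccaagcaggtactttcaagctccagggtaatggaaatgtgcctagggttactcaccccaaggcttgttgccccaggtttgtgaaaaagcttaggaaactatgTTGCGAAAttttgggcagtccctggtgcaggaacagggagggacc
C1qc, chr4:136893066-136893164: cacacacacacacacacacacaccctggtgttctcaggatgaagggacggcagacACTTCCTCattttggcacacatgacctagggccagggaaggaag
C1s1, chr6:124542360-124542609: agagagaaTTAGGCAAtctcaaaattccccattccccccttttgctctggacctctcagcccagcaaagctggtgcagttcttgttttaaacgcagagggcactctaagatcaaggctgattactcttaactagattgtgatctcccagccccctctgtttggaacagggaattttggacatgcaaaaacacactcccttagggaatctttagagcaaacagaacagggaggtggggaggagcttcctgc
C3 held a C/EBP match 45 to 38 bases before its start and C1s1 one 242 to 235 bases before the start shown, 1 of 2 that RefSeq gives, a motif found in 9.56% of 32851 RefSeq promoters of 250 bases. C1qc held a PU.1 match, found in 2.44% of them, 195 to 188 bases before its RefSeq start. That start lies inside the C1qc span given above, so the match is nearer to the end of that span. The interferon-gamma activated site, found in 7.02%, had no match in these windows. Such matches are letters in a window, and no binding was measured here.

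Each of the 9 genes stood higher in KO than in WT. A gene was counted as higher or lower when its UMIs in the pair of libraries came to 50 or more, its ratio was 2 or more either way and the counting intervals of its levels lay apart. This rule sets a size and tests nothing. By it, 20.6% of the 20252 genes with enough UMIs were higher in KO and 8.63% were lower. The median log2 ratio was 4.00 for the 9 genes and 0.245 for all genes.

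**Figure D1:**
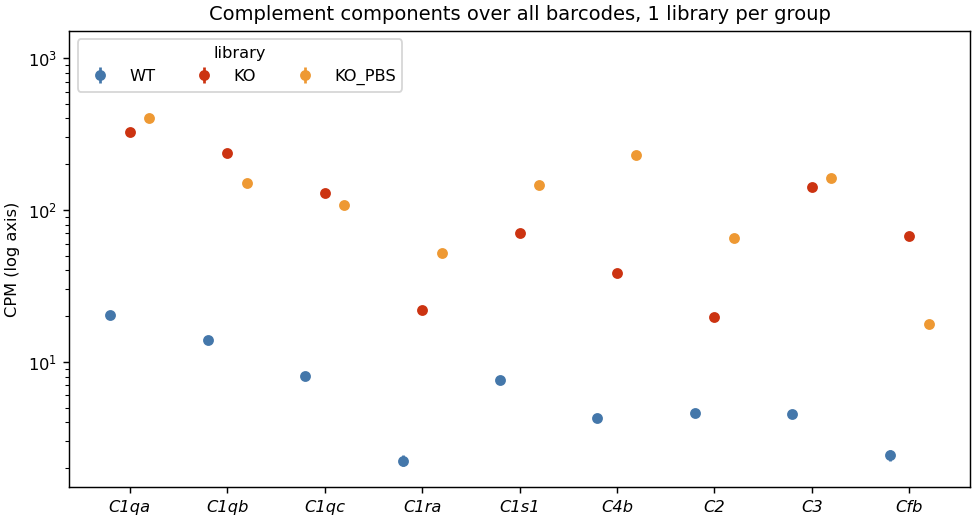
CPM (log axis) of the 9 complement genes over all barcodes of the WT, KO and KO_PBS libraries, 1 point per library with its 95% Poisson interval (mostly smaller than the point). Every gene is lowest in WT, and KO_PBS lies above KO for C1qa, C1ra, C1s1, C4b, C2 and C3 (closest for C3 and C1qa) and below it for C1qb, C1qc and Cfb.

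C1q is built from 3 chains, each with its own gene. C1qa stood at 20.3 CPM in WT, 325 in KO and 403 in KO_PBS, a KO to WT ratio of 16.0 (15.5 to 16.4). C1qb stood at 13.8, 236 and 150, with a ratio of 17.1 (16.5 to 17.7). C1qc stood at 8.04, 129 and 108, with a ratio of 16.1 (15.4 to 16.8). The 3 chains thus differed between KO and WT by nearly the same ratio, and the interval of C1qc overlaps those of both others. Macrophage markers were also higher in KO, 11 of 13 by the same rule with a median log2 ratio of 2.39, and their part in the C1q difference was not tested. Over all barcodes, for each macrophage-marker UMI, WT held 0.355 C1q UMIs, KO 0.813 and KO_PBS 0.767.

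The proteases that ride on C1q were next. C1ra stood at 2.23 CPM in WT, 21.9 in KO and 52.1 in KO_PBS, and its KO to WT ratio was 9.85 (9.05 to 10.8). C1s1 stood at 7.54, 70.1 and 146, with a KO to WT ratio of 9.30 (8.88 to 9.75). Both therefore were higher in KO_PBS than in KO as well as higher in KO than in WT. Their near copies C1rb and C1s2 were measured apart: C1rb at 0.957, 7.998 and 8.78 CPM, C1s2 at 1.59, 17.3 and 24.6. Of the 90-base windows of C1ra's transcript 36.6% also occur in C1rb, and of those of C1s1 10.4% in C1s2. Reads from these windows cannot be given to 1 gene. In the last 1000 bases, the end that a 3′ kit reads, the shares were 19.2% for C1ra and 1.21% for C1s1.

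C4 and C2 are the targets that C1s cuts. C4b stood at 4.25 CPM in WT, 38.6 in KO and 228 in KO_PBS, and its KO to WT ratio was 9.09 (8.54 to 9.68). C2 stood at 4.58, 19.8 and 65.1, and its ratio of 4.32 (4.06 to 4.60) was the smallest of the 9. Both genes stood highest in KO_PBS.

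C3, on which all pathways meet, stood at 4.52 CPM in WT, 141 in KO and 163 in KO_PBS. Its KO to WT ratio of 31.2 (29.4 to 33.1) was the largest of the 9. Cfb, which encodes factor B, stood at 2.42, 67.4 and 17.7, with a KO to WT ratio of 27.9 (25.7 to 30.2). C3 and Cfb thus had larger KO to WT ratios than the other 7 genes, with intervals that do not overlap theirs. Relative to the median gene, the log2 ratios of the 9 genes ran from 1.87 (C2) to 4.72 (C3), and all 9 still passed the rule.

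Between KO_PBS and KO the 9 genes divided. By the same rule 4 were higher in KO_PBS, where 39.9% of all 22416 genes measured were, and 1 was lower, where 4.70% were. The 4 were C4b with a ratio of 5.92 (5.80 to 6.03), C2 with 3.29 (3.20 to 3.39), C1ra with 2.37 (2.30 to 2.45) and C1s1 with 2.09 (2.05 to 2.12). Cfb was lower, with a ratio of 0.263 (0.253 to 0.273). The share of genes counted higher is so large that 4 of 9 lies near it. The median gene itself had a log2 ratio of 0.63. Relative to the median gene, C2 and C4b remained higher at log2 1.09 and 1.93, C1ra and C1s1 fell short at 0.62 and 0.43, and Cfb and C1qb were lower at -2.56 and -1.29.

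C3 and the C1q genes did not pass the rule in this comparison. C3 had a ratio of 1.15 (1.13 to 1.17) and C1qa of 1.24 (1.23 to 1.25), while C1qc had 0.832 (0.818 to 0.846) and C1qb 0.634 (0.626 to 0.643). The signs of C3 and C1qa depend on the scaling, since relative to the median gene both are negative, at log2 -0.43 and -0.32. Against WT, KO_PBS was higher for all 9 genes, where 57.0% of 22138 genes were counted higher and 4.06% lower. Those ratios ran from 7.32 (6.71 to 7.99) for Cfb to 53.8 (50.6 to 57.2) for C4b. The 3 comparisons share libraries and are not independent of each other.

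All comparisons with KO_PBS carry a further limit, because its gene list differs, with 31053 genes against 32285 for WT and for KO. For C4b, C2 and Cfb, genes that resemble or overlap them are listed for some libraries only. C4a, a near copy of C4b that holds 18.9% of the 90-base windows of C4b's transcript, is listed for WT (75 UMIs) and KO (231 UMIs) but not for KO_PBS. Gm20547 is listed for KO_PBS alone, with 1 UMI. It lies on the same strand as C2 and Cfb and shares 42.8% of the exon bases of C2 and 79.5% of those of Cfb, including 38.4% of the last 1000 bases of C2 and 88.8% of those of Cfb. Reads from shared bases cannot be given to 1 gene, so the 1 UMI does not show how many reads were affected. The part of these lists in the differences was not tested.

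The proportions of the C1q chains were close in WT and KO and differed more in KO_PBS. Of all C1q UMIs, C1qa made up 48.2% (47.2 to 49.1, exact binomial) in WT, 47.1% (46.9 to 47.3) in KO and 61.0% (60.8 to 61.3) in KO_PBS. C1qb made up 32.7% (31.9 to 33.6), 34.2% (34.0 to 34.4) and 22.7% (22.4 to 22.9). C1qc made up 19.1% (18.3 to 19.8), 18.8% (18.6 to 18.9) and 16.3% (16.1 to 16.5). The KO_PBS library differs from both others with intervals that do not overlap theirs, with more C1qa and less C1qb. Between WT and KO the intervals lie apart for C1qb alone. The same order was seen within barcodes rich in macrophage markers, where C1qa was 45.3% (37.9 to 52.9) in WT, 43.1% (39.6 to 46.7) in KO and 54.7% (50.9 to 58.4) in KO_PBS. There the KO_PBS interval overlaps that of WT and not that of KO. The share of C1qb in these barcodes was 32.0% (25.3 to 39.4), 36.5% (33.1 to 40.0) and 26.1% (22.9 to 29.6). KO_PBS also had the most C1qa and least C1qb in other barcode sets. Among the 25% of barcodes with the fewest UMIs it held 59.5% C1qa, beside 49.8% (WT) and 46.75% (KO). Among those rich in no class it held 61.15%, beside 47.9% and 47.1%. Keratocyte-rich ones gave 58.0% (43.2 to 71.8), which overlaps both others. The shift was thus seen beyond macrophage-rich barcodes, and the part of the differing KO_PBS gene list in it was not tested.

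**Figure D2:**
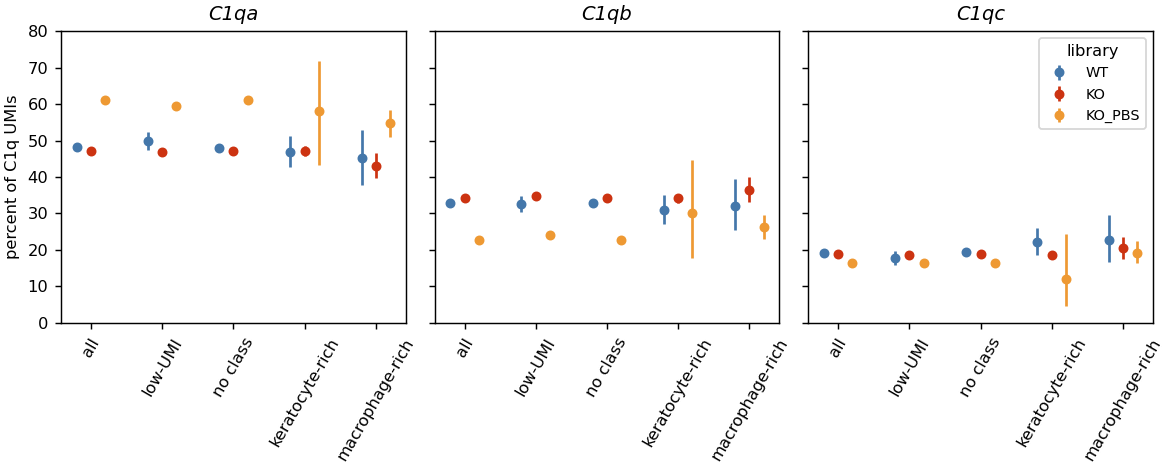
Percent of C1q UMIs that belong to C1qa, C1qb and C1qc, by library, over all barcodes, the low-UMI barcodes, barcodes rich in no class, and keratocyte- and macrophage-marker-rich barcodes, with exact 95% binomial intervals. KO_PBS lies above WT and KO for C1qa and below them for C1qb over all barcodes, 61.0% against 48.2% and 47.1% for C1qa.

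To ask which nuclei carried these RNAs, barcodes rich in markers of 1 of 17 classes were set apart. A barcode was rich in a class when at least 3 of its markers had a UMI and their sum lay above the library's mean share with a Poisson tail below 1e-06. No complement gene is a marker. The macrophage-rich barcodes came to 28 (WT), 82 (KO) and 90 (KO_PBS), and the keratocyte-rich ones to 1874, 1858 and 37. The class is a range of a score and not a cell type: with a tail below 1e-04, there were 54, 217 and 162 macrophage-rich barcodes. Most barcodes were rich in no class, or 94.0% of the called barcodes of WT, 86.5% of KO and 97.6% of KO_PBS.

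The classes were chosen by their marker lists, so a lead of those markers says nothing about the name, and the leading genes given here are the ones outside the lists. Of the first 10 genes of keratocyte-rich barcodes, those outside all marker lists were A2m and Col6a1 in both WT and KO. In KO_PBS the 37 keratocyte-rich barcodes had Sfrp2 and Col14a1 first among such genes, and Kera, though one of the selecting markers, was not among the first 10, so this set is called by its rule. Outside the lists, macrophage-rich barcodes were led by Ccl8 and Retnla in WT, with C1qa, C1qb and C1qc also among the first 10, by Mmp12 and Lyz1 in KO, and by Aoah and Saa3 in KO_PBS. They still held epithelial RNA: the median of corneal epithelium markers was 42.3 per 1000 UMIs in WT (46.1 in barcodes rich in no class), 27.7 in KO (33.6) and 12.2 in KO_PBS (19.6).

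The 3 C1q genes were higher in macrophage-rich than in keratocyte-rich barcodes of every library. In WT, C1qa stood at 528 CPM (420 to 656) in macrophage-rich, 30.9 (27.1 to 35.0) in keratocyte-rich and 18.8 (18.2 to 19.4) in class-free barcodes, those rich in no class. In KO the same gene stood at 1029 (922 to 1145), 356 (342 to 370) and 323 (321 to 325). In KO_PBS it stood at 1549 (1397 to 1713), 314 (211 to 452) and 407 (404 to 410). In KO and KO_PBS, keratocyte-rich barcodes thus held C1qa at 1.10 (1.06 to 1.15) and 0.772 (0.517 to 1.11) times the level of barcodes rich in no class, and macrophage-rich ones stood above both.

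The macrophage to keratocyte ratio of C1qa was 17.1 (13.2 to 22.1) in WT, 2.89 (2.57 to 3.24) in KO and 4.93 (3.38 to 7.46) in KO_PBS. For C1qb it was 18.4 (13.4 to 24.96), 3.39 (2.98 to 3.84) and 4.55 (2.69 to 8.30). For C1qc it was 18.2 (12.4 to 26.1), 3.47 (2.92 to 4.11) and 8.36 (3.74 to 23.2). The ratios were smaller in KO than in WT for each chain, with intervals that do not overlap, while the level outside macrophage-rich barcodes was higher. All 3 chains passed the rule in each library under each of 7 alternative settings, with log2 ratios of C1qa from 3.75 to 4.32 (WT), from 1.31 to 1.58 (KO) and from 1.86 to 2.30 (KO_PBS). In WT 4 of the 9 genes were counted higher and 0 lower in macrophage-rich barcodes, where 1.33% and 0.593% of all genes were. In KO 5 were higher and 0 lower, where 1.17% and 0.776% were, and in KO_PBS 3 were higher, where 1.92% were. The median gene of these comparisons had a log2 ratio of 0.73 (WT), 0.18 (KO) and 0.01 (KO_PBS), and all C1q ratios exceed 2 relative to it.

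**Figure D3:**
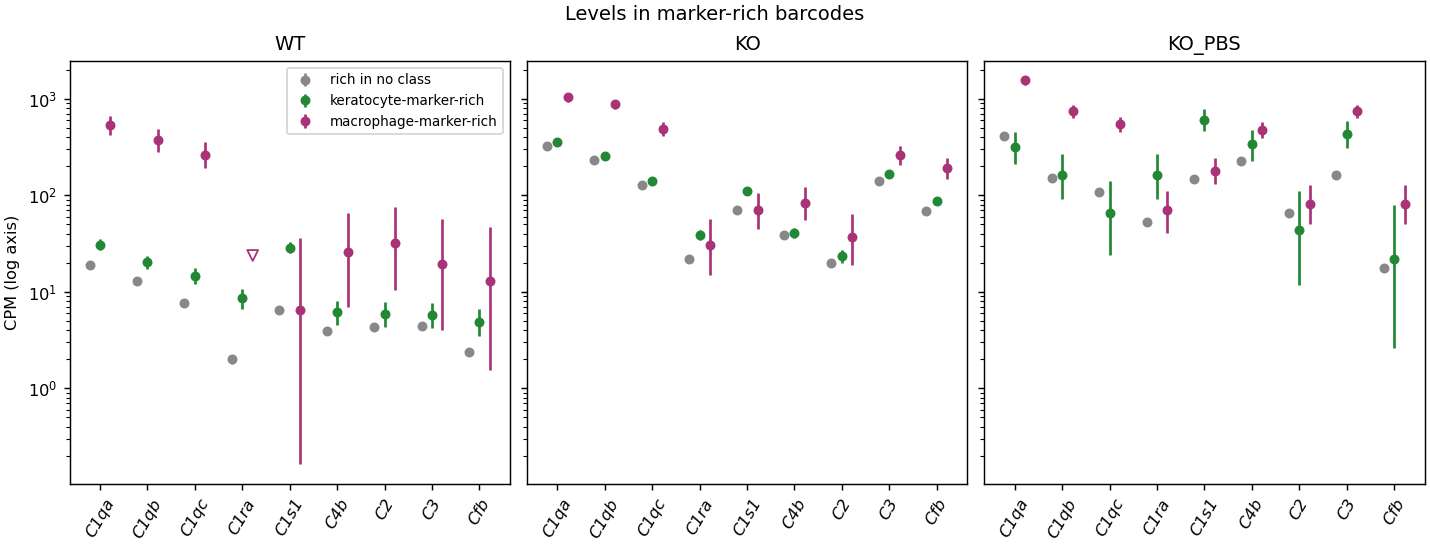
CPM (log axis) of the 9 genes in barcodes rich in no class (grey), keratocyte-marker-rich (green) and macrophage-marker-rich (purple) barcodes of each library, with 95% Poisson intervals; an open triangle is the upper limit for a gene with 0 UMIs. The C1q genes are highest in macrophage-rich barcodes in all 3 libraries, and C1s1 is highest in keratocyte-rich ones.

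C1q RNA was also found in barcodes of other kinds. With each barcode thinned to 1000 UMIs, the share with at least 1 C1q UMI was 61.2% of macrophage-rich, 5.69% of keratocyte-rich and 3.71% of class-free WT barcodes. In KO the shares were 86.4%, 50.7% and 47.9%, and in KO_PBS 87.2%, 41.4% and 48.5%. In corneal epithelium-rich barcodes, a class that should lack C1q, it was 2.34% in WT, 35.8% in KO and 31.8% in KO_PBS. Unthinned, those epithelial shares were 12.4%, 84.0% and 65.9%, at median depths of 5089, 4696 and 3075 UMIs, against 96.4%, 98.8% and 97.8% of macrophage-rich barcodes at 4122, 3546 and 2504. The thinning left out 11146 class-free barcodes of KO_PBS, 3 epithelial and 1 macrophage-rich, and 0 in WT and KO. The 25% of barcodes with the fewest UMIs held C1qa at 22.1, 332 and 439 CPM, against 20.3, 325 and 403 over all barcodes. Vascular endothelium-rich barcodes of WT held C1qa at 60.9 CPM from 14 UMIs, above the class-free level. How much of the C1q in other classes is free RNA was not tested.

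C1ra and C1s1 were higher in keratocyte-rich than in class-free barcodes. In WT, C1s1 stood at 28.6 CPM (228 UMIs) in keratocyte-rich barcodes, 6.55 (6.20 to 6.91) in class-free ones and 6.44 (0.163 to 35.9, 1 UMI) in macrophage-rich ones. In KO it stood at 111 (103 to 119), 69.8 (68.8 to 70.8) and 70.9 (44.9 to 106). In KO_PBS it stood at 607 (459 to 789), 147 (145 to 149) and 180 (131 to 242). Only there did it pass the rule as lower in macrophage-rich than in keratocyte-rich barcodes, with a ratio of 0.296 (0.195 to 0.448), where 2.12% of genes did. The call was kept in 6 of 7 alternative settings and lost with a tail below 1e-04. It was 1 of 9 genes counted lower in KO_PBS, and 0 were in WT or KO.

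C1ra followed it. Its keratocyte-rich level was 4.28 times that of class-free barcodes in WT, 1.77 times in KO and 3.10 times in KO_PBS. For C1s1 these ratios were 4.37, 1.59 and 4.13. The KO_PBS level of C1ra rests on 15 UMIs (162.6 CPM, 91.0 to 268). Corneal endothelium-rich barcodes held C1ra at 6.17 (3.19 to 10.8) in WT and 31.9 (21.85 to 45.1) in KO. Both overlap the keratocyte-rich levels, 8.53 (6.62 to 10.8) and 38.5 (34.1 to 43.3). In KO_PBS they held it at 60.8 (51.2 to 71.6), below the keratocyte-rich interval. No C1ra UMI was seen in the 28 macrophage-rich barcodes of WT, which allows up to 23.8 CPM, so a difference from the 8.53 of keratocyte-rich ones was not detectable at this depth. Serping1, the inhibitor of C1r and C1s, leaned the same way, at 114.5 CPM in keratocyte-rich and 23.6 in class-free barcodes of WT. The same levels were 399 and 243 in KO, and 640 and 228 in KO_PBS. Corneal endothelium-rich barcodes held C1s1 at 21.1 (15.1 to 28.6) in WT, above the class-free level and overlapping the keratocyte-rich one. In KO, C1s1 was highest in vascular endothelium-rich barcodes at 162 (109 to 231), which overlaps the keratocyte-rich level, and stood at 109 (89.3 to 131) in corneal endothelium-rich ones.

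C2 and C4b were above the class-free level in melanocyte-rich barcodes of WT and KO_PBS. In WT, C2 stood at 27.2 CPM (19.2 to 37.5) in 413 melanocyte-rich barcodes, beside 32.2 (10.5 to 75.2) in macrophage-rich and 4.27 (3.99 to 4.57) in class-free ones. C4b stood at 19.9 (13.1 to 28.9), 25.8 (7.02 to 66.0) and 3.95 (3.68 to 4.23). In KO_PBS, C2 was at 127 (105 to 152) in melanocyte-rich and 65.1 (63.9 to 66.4) in class-free barcodes, and C4b at 307 (272 to 345) and 228 (226 to 231). C4b was higher still in macrophage-rich barcodes of KO_PBS at 478 (396 to 573), and stood at 336 (228 to 477) in keratocyte-rich ones. In KO, melanocyte-rich barcodes held C2 at 34.4 (13.9 to 71.0, 7 UMIs), an interval that includes the class-free 19.9, and C4b at 73.8 (41.3 to 122) against 38.6. The melanocyte marker list summed to 4216 CPM in KO_PBS and 142.9 in KO, and its part in the higher C2 and C4b of KO_PBS was not tested. C2 was counted higher in macrophage-rich than keratocyte-rich barcodes in WT alone, from 5 UMIs and with a ratio of 5.46 (1.70 to 13.7) that kept its call in 5 of 7 alternatives and lost it with a tail below 1e-04 or 1e-10, and C4b in KO alone, with 2.04 (1.32 to 3.03), which lies below 2 relative to the median gene and was likewise kept in 5 of 7.

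C3 and Cfb were highest or among the highest in macrophage-rich barcodes. C3 stood there at 19.3 CPM in WT (3.98 to 56.5, from 3 UMIs), 259 (206 to 320) in KO and 740 (636 to 856) in KO_PBS. Keratocyte-rich barcodes held C3 at 5.77 (4.22 to 7.70), 166 (157 to 175) and 434 (310 to 591), and class-free ones at 4.41, 142 and 163. The macrophage to keratocyte ratio of C3 did not pass the rule in any library, at 3.35 (0.666 to 10.4), 1.56 (1.24 to 1.95) and 1.71 (1.21 to 2.47). Of 7 alternative settings it passed under 2 in WT, 0 in KO and 1 in KO_PBS. Cfb stood at 191 (146 to 245) in macrophage-rich and 86.6 (79.97 to 93.7) in keratocyte-rich barcodes of KO, a ratio of 2.21 (1.67 to 2.87) that passed the rule but lies below 2 relative to the median gene, and that passed under 4 of 7 alternatives. In KO_PBS the macrophage-rich level of Cfb was 81.8 (49.9 to 126), from 20 UMIs, against 17.8 (17.2 to 18.5) in class-free barcodes.

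**Figure D4:**
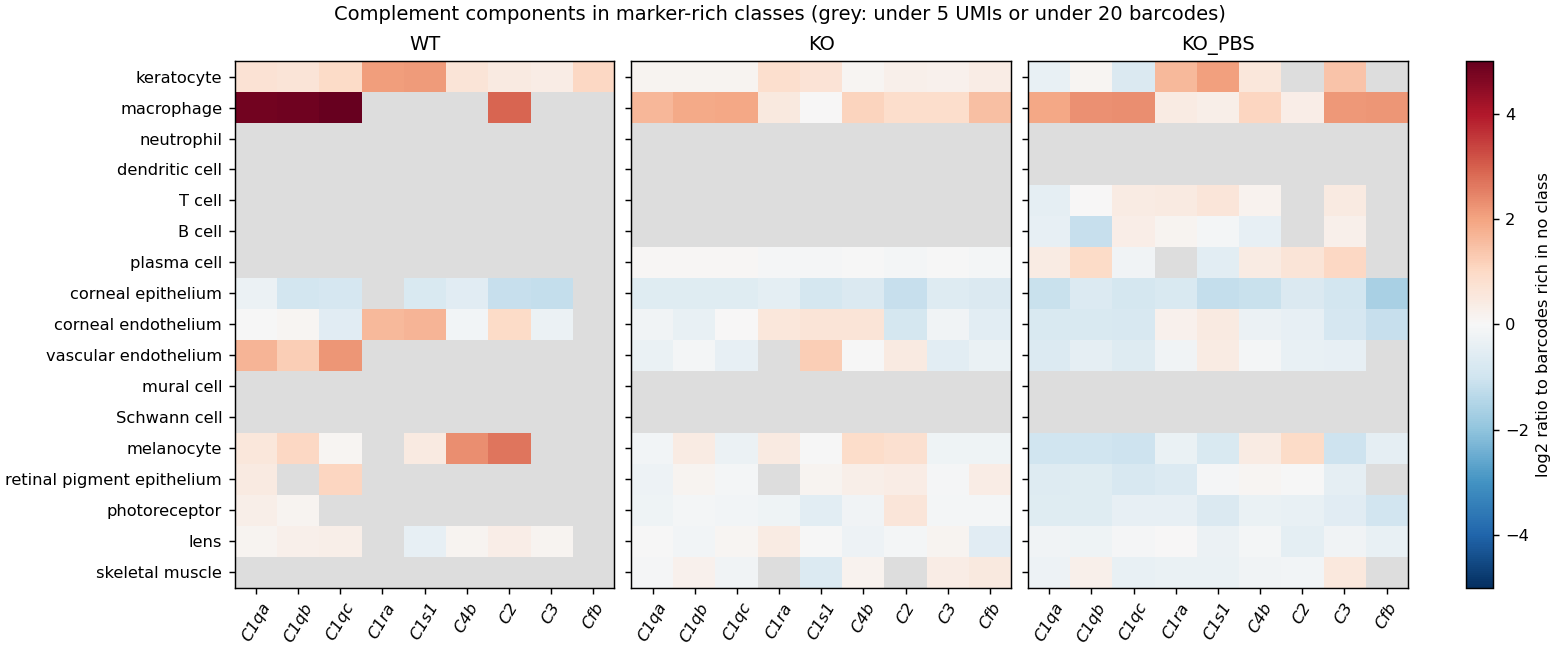
Log2 ratio of each gene's CPM in a marker-rich class (rows) to that in barcodes rich in no class, for the 3 libraries; grey marks fewer than 5 UMIs or fewer than 20 barcodes. The C1q columns are red in the macrophage rows, C1ra and C1s1 in the keratocyte rows, C2 and C4b in the melanocyte row of WT, and all 9 genes are blue or grey in the corneal epithelium rows.

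The KO to WT difference was seen within keratocyte-rich barcodes too. All 9 genes passed the rule there, where 15.3% of genes were counted higher and 3.15% lower, with ratios from 3.88 (3.34 to 4.51) for C1s1 to 28.7 (21.4 to 39.5) for C3. The KO level of C3 in them, 166 CPM, lay between those of skeletal muscle-rich (182) and lens-rich (156) barcodes. Over the 11 classes with at least 20 barcodes, C3 ran from 90.15 (corneal epithelium-rich) to 259 (macrophage-rich), and Cfb from 41.2 to 191 in the same classes. How much of any of the 9 RNAs in keratocyte-rich barcodes is free RNA was not tested. Barcodes rich in no class gave ratios from 4.66 for C2 to 32.1 for C3, with 9 of 9 counted higher beside 19.3% of all genes, and 0 lower beside 9.75%. These barcodes held 91.4% of the UMIs of called barcodes in WT and 83.9% in KO, so their ratios lie close to those of the whole library by construction. In the same barcodes KO_PBS was higher than WT for all 9, beside 56.8% higher and 3.68% lower of all genes, and against KO 4 were higher beside 43.7% and 1 lower beside 4.43%, the same genes as over all barcodes. The median gene of that last comparison had a log2 ratio of 0.78. Relative to it C1ra, C1s1 and C2 lie below a ratio of 2 and C4b above it, while C1qb and C1qc are lower by more than that ratio. All 9 ratios were smaller in keratocyte-rich than in class-free barcodes, C1ra with 4.51 (3.45 to 5.97) against 10.9 (9.84 to 12.1), C1qa with 11.5 (10.1 to 13.2) against 17.2 (16.6 to 17.7) and C3 with 28.7 against 32.1 (30.0 to 34.4), whose intervals overlap.

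Within macrophage-rich barcodes the KO to WT ratios of C1q were smaller. These barcodes were selected against each library's own mean, and those of KO held more macrophage-marker RNA than those of WT, with medians of 5.63 and 2.38 marker UMIs per 1000, and its part in the ratios was not tested. C1qb passed the rule with 2.33 (1.75 to 3.15), while C1qa at 1.95 (1.53 to 2.51) and C1qc at 1.84 (1.30 to 2.67) fell short of it. C3 passed with 13.4 (4.43 to 66.3) on 84 against 3 UMIs, Cfb with 14.8 (3.94 to 125) on 62 against 2, and C1s1 with 11 (1.79 to 453) on 23 against 1. With the WT counts of Cfb and C1s1 set to 3, as the rule does, their log2 ratios were 3.31 and 1.87. These 4 of 9 stand beside 5.92% of all genes counted higher, with 0 of 9 lower beside 1.76%. Relative to the median gene C1qb falls short too, at log2 0.91. C1qa thus differed 16.0-fold between the libraries as a whole and 1.95-fold between their macrophage-rich barcodes, with intervals far apart. With the looser tail of 1e-04, which took in 217 barcodes of KO and 54 of WT, 7 of the 9 genes were counted higher. The share over all genes at that tail is not given, and the 5.92% does not apply to it.

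Between KO_PBS and KO, macrophage-rich barcodes were higher for C4b with a ratio of 5.75 (3.76 to 9.09), C3 with 2.86 (2.19 to 3.75) and C1s1 with 2.54 (1.5 to 4.40), where 9.31% of genes were counted higher. Cfb was lower there, with a ratio of 0.428 (0.245 to 0.718), where 3.35% were. The limit of the KO_PBS gene list given above applies to C4b, C2 and Cfb within classes too. Relative to the median gene, C1s1 falls short of the rule at log2 0.97. C3 was also higher in keratocyte-rich barcodes of KO_PBS than of KO, 2.62-fold (1.86 to 3.58), although its level over all barcodes differed by a ratio of 1.15. This sets 37 barcodes of KO_PBS, with 40 C3 UMIs, against 1858 of KO. As given above, the leading genes of the KO_PBS set differ from those of the WT and KO sets. The difference is thus between sets picked by the same rule, and not within a single cell type. C1ra, C1s1 and C4b were higher and Cfb lower in that comparison as well, 4 higher and 1 lower in all, beside 8.68% and 1.67% of genes. The call of Cfb rests on 2 UMIs in KO_PBS, with a ratio of 0.2504 (0.030 to 0.908), and its direction reversed with a tail below 1e-10, at log2 0.14. The median gene there had a log2 ratio of 1.20, and relative to it 2 were higher (C1s1 and C4b) and 4 lower (the C1q genes and Cfb), with C3 at log2 0.19. Against WT, KO_PBS was higher for 8 genes in keratocyte-rich barcodes, beside 16.1% higher and 2.24% lower of all genes. The median gene there had a log2 ratio of 1.65, and relative to it 6 were higher, without C1qc at log2 0.51 and C2 at 1.23. In macrophage-rich ones it was higher for 7, all but C1qb and C2, beside 16.2% and 4.52%, and relative to the median gene for 4.

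Genes with the most similar pattern were ranked over the 35 pairs of class and library with at least 20 barcodes, by the correlation of log2(CPM + 10) among 16277 genes. The points share libraries and depth, so these values only describe. The mean of the C1q genes was closest to Lyz2 (Pearson r = 0.973), a lysozyme of myeloid cells and itself a macrophage marker here, then Ctss (0.970), Tyrobp (0.970), Ccl8 (0.969) and H2-Ab1 (0.963). C3 was closest to Cxcl9 (0.983), a chemokine induced by interferon gamma, then H2-Q6 (0.962), Marcks (0.959), Ifi47 (0.959) and H2-Aa (0.957). With each library's mean removed, Lyz2 (0.954) and Cxcl9 (0.886) kept the highest values. For C1q, Fcer1g then took the place of Ctss among the first 5. For C3 the rest of the first 5 changed, to Clec4a1 (0.859), Adgre1 (0.826), a macrophage marker here, Clec4a3 (0.826) and Siglec1 (0.826).

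Another 44 complement genes were measured in every list, and they are described here by role, with no test between roles. Between KO and WT, 21 of the 38 with enough UMIs were counted higher and 5 lower, beside 20.6% and 8.63% of all genes, and relative to the median gene 18 and 8. Their median log2 ratio was 1.06, below that of the 9 genes. Of the receptors 8 of 10 were higher, or 7 relative to the median gene: Itgb2, the shared chain of complement receptors 3 and 4, at 0.453 CPM in WT and 20.8 in KO, a ratio of 45.9 (38.2 to 55.7), Itgax at 35.8 (28.7 to 45.3), the C3a receptor C3ar1 at 32.7 (26.2 to 41.4) and the C5a receptor C5ar1 at 16.3 (12.6 to 21.2). Itgam, the partner of Itgb2 in complement receptor 3, had a ratio of 2.10 (2.04 to 2.16), which falls short relative to the median gene. Marker lists of leukocytes moved with the receptors. Between KO and WT, 7 of 7 neutrophil, 6 of 6 dendritic cell, 10 of 10 T cell, 7 of 8 B cell and 8 of 8 plasma cell markers were counted higher and 0 lower, besides the macrophage markers. The summed level of each list went from 118.8 to 847.7 CPM for macrophages, 0.797 to 37.0 for neutrophils, 2.11 to 20.2 for dendritic cells, 8.92 to 170.3 for T cells, 21.8 to 129 for B cells and 33.2 to 13820 for plasma cells. In KO_PBS the lists stood at 859.8, 13.5, 31.2, 177.0, 145.8 and 1224 in the same order. Their part in the receptor differences was not tested.

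Among genes of the terminal pathway, whose products form the membrane pore, 1 of 5 was higher in KO (C6, 7.54-fold), near the 20.6% of all genes, and 2 were lower, beside 8.63%, C8a at 0.279 (0.152 to 0.490) and C9 at 0.310 (0.174 to 0.533), with 47 UMIs each in WT. Relative to the median gene 3 were lower. Against the same shares, of 12 regulators 4 were higher and 2 lower, or 3 and 4 relative to the median gene, led by Serping1, at 27.6 CPM in WT, 244 in KO and 228 in KO_PBS. Cfi and Vtn were lower in KO. In the lectin pathway 4 of 7 were higher, or 3 relative to the median gene, among them Masp1 at 2.85, 13.3 and 9.76 CPM and Fcnb, which had 2 UMIs in WT and 470 in KO, and Colec10 was lower. Cfp, which encodes properdin, a stabiliser of the alternative enzyme, stood at 1.73 CPM in WT and 20.8 in KO.

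**Figure D5:**
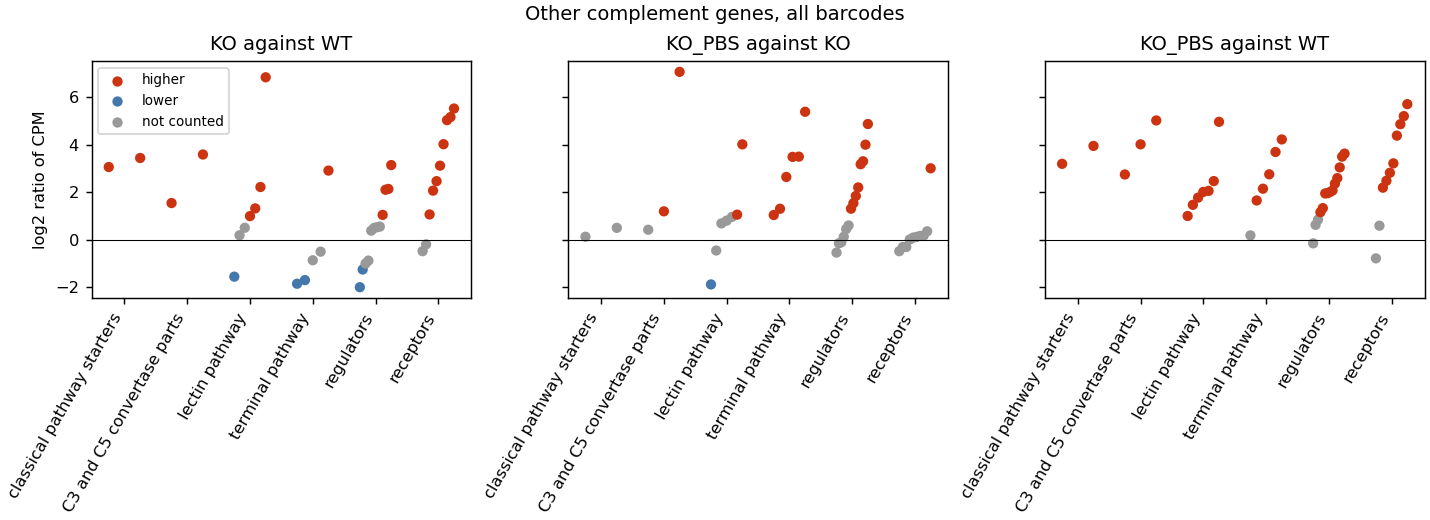
Log2 ratio of CPM for the other complement genes with at least 50 UMIs over both libraries, grouped by role, in the 3 comparisons over all barcodes; red and blue mark genes counted higher and lower, grey those not counted. In KO against WT 8 of 10 receptors are red and in KO_PBS against KO 1 of 10, and of the terminal pathway genes 1 of 5 and 6 of 6 are.

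Between KO_PBS and KO, where 39.9% of all genes were counted higher and 4.70% lower, 1 of 10 receptors was higher, Vsig4. Of the terminal genes 6 of 6 were higher, or 4 relative to the median gene. C9 had a ratio of 41.8 (26.7 to 69.1) and Vtn, a regulator that binds the forming pore, stood at 1.03 CPM in KO and 30.2 in KO_PBS. These genes were at low levels in KO, C9 with 20 UMIs. Cfd, the protease that activates factor B, had 3 UMIs in KO and 1.14 CPM in KO_PBS, a ratio of 134 (45.1 to 654). Of the 42 genes that met the UMI minimum 19 were higher and 1, Fcnb, lower, near the shares over all genes, or 13 and 4 relative to the median gene. Marker lists of the lens (247.4 to 9682 CPM), photoreceptors (57.8 to 1647) and retinal pigment epithelium (29.8 to 422.7) were higher in KO_PBS as well, and their part in these differences was not tested. Colec10, a lectin pathway collectin, and Cfi, the protease that inactivates C3b, had ratios of 16.2 (9.60 to 29.1) and 16.0 (9.79 to 27.8). Against WT, KO_PBS was higher for 36 of 42 genes and lower for 0, or 22 and 3 relative to the median gene, beside 57.0% and 4.06% of all genes. The largest of those ratios were 52.2 for Itgb2, 46.8 for Fcnb (2 UMIs in WT), 36.8 for C3ar1, 32.5 for Cfd and 29.1 for Itgax.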

How the data were processed

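Nuclei of whole mouse corneas were profiled in 3 libraries (10x Genomics 3′ kit, per the labels' protocols). The authors deposited whole-number UMI counts per gene and barcode, not normalized. The tool was Cell Ranger (version 7.0.1), as read from the file headers, and the build was mm10, per the submitters' processing notes; the annotation and barcode filter are not given in the sources used here. The 30406 Ensembl IDs in every list held at least 99.3% of UMIs. UMIs were summed over all barcodes or over classes and divided by the sum over all shared genes to give CPM. For classes, barcodes with 500 or more genes, a mitochondrial share up to 5% and a UMI total not under 10% of the 99th percentile (top 10000 barcodes) were used, leaving 72297, 106227 and 108660. Class sums needed at least 10 UMIs over both sides. Counts under 3 were set to 3 for the rule. Barcodes rich in more than 1 class were left out (198, 322 and 74), which removes some doublets, and no doublet caller was run. Around the threshold, 12, 43 and 41 macrophage-rich barcodes lay just inside (tail above 1e-08) and 38, 190 and 83 just outside (tail below 1e-04).

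Intervals are exact Poisson, and for ratios and shares exact binomial. All 9 complement genes are named, and of the others up to 5 per direction and comparison with the largest ratio among those counted, plus genes on whose list a result turns; for like patterns, the 5 with the highest correlation. The genes, lists and markers were chosen with earlier results of these data known. Windows of 90 bases and exon overlaps used GENCODE M21 and promoters RefSeq GRCm38.p6 (5 of the 9 genes matched the table used); looser NF-kB and interferon response motifs were searched too and are not reported. The lacripep arm named in the series text was not analysed here. The rules were tested on simulated data. Scripts ran in Python 3.11.15 with pandas 2.3.3, scipy 1.17.1, numpy 2.4.6 and, for plots, matplotlib 3.10.9.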

Additional observations from a re-analysis of the deposited data

How the results depend on the processing

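No paired analysis was possible because each group holds 1 library. All 9 genes stayed higher in KO than in WT under each alternative (centring on the median gene, totals without immunoglobulin genes and AY036118, no UMI minimum, called, low-UMI barcodes, or barcodes rich in no class). In KO_PBS against KO, 2 were higher (C2 and C4b) with centring and in low-UMI barcodes, and 2 higher (C1ra and C1s1) and 0 lower without C4b, C2 and Cfb. With centring 2 were lower (C1qb and Cfb). The sums over barcodes rich in no class and the exclusion of C4b, C2 and Cfb were chosen after seeing the data. With a Poisson tail below 1e-04, 3 genes (C1qa, C1qb and C1qc) in place of 5 were higher in macrophage-rich than keratocyte-rich barcodes of KO, 0 in place of 1 were lower in KO_PBS, and 7 in place of 4 differed between KO and WT in macrophage-rich barcodes. In those barcodes 4 in place of 7 differed between KO_PBS and WT with centring, and 4 with at least 50 UMIs. With a tail below 1e-10, Cfb in keratocyte-rich barcodes of KO_PBS against KO reversed to a log2 ratio of 0.14, not counted. The causes were not tested. For counts relative to the median gene, and for those under other Poisson tails, the share over all genes is not given. Such counts therefore cannot be set against that of all genes. The 28 macrophage-rich barcodes of WT limit every ratio to them.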
